A study of Drosophila melanogaster with 6 samples.

Results

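The host-defence peptide genes of Drosophila melanogaster described here number 33, of which 21 are antimicrobial peptide genes and 12 are Bomanin genes. They were chosen by gene symbol. All 33 were found in the annotation, and 32 were among the 16942 genes listed in the count files, which list a gene from 1 count upward; Drsl3 was not listed in any library. Messenger RNA was measured in wild type males of the Dahomey strain kept with rival males, in 3 groups: abdomens after 2 h of exposure, the head-thorax part after 26 h, and the head-thorax part after 2 h. All males were held 10 per vial after eclosion, then singly for 5 days from an age of 1 day, and were frozen whole before being divided into body parts. Each group is 1 pool of 40 body parts, sequenced as 2 split libraries, so there is no replicate pool of any group and no pool of males without rivals is analysed here.

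Antimicrobial peptides are small secreted proteins that kill bacteria or fungi in the insect's blood and at its epithelia. In flies, bacterial peptidoglycan recognised by the Imd pathway activates the NF-kappaB protein Relish, while fungi and many Gram-positive bacteria act through the Toll pathway and its NF-kappaB proteins Dif and Dorsal. Diptericins, attacins, cecropins and drosocin are classic Imd targets, drosomycin and the Bomanins are classic Toll targets, and the fat body is their main source after infection. Some members are also made without infection in epithelia and in the reproductive tract, andropin (Anp) of the male ejaculatory duct being the best known.

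Most of the genes lie in tandem groups, and 27 of the 33 overlap no other annotated gene. In the BDGP6.54 annotation 10 Bomanin genes occupy 9.24 kb of chromosome arm 2R, from 18381393 to 18390629. BomT3 and BomBc3 lie within 3.13 kb of 3R, at 22085374 to 22088501. Anp and the 4 cecropin genes span 6.99 kb of 3R, from 30209948 to 30216938. Drsl2 to Drsl5 share 2.80 kb of 3L at 3314349 to 3317144, with Drs itself at 3369556 to 3369942. They are short genes, 11 with no intron, 21 with 1 intron and 1, BomBc3, with 2. CecA1 with CecA2, and AttA with AttB, are close copies that can share reads, so the split between the genes of each pair is uncertain.

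Reads seem to be counted across the full span of a gene, introns included, and on either strand, because a host gene held at least as many counts as a gene nested in it in 99.71% to 99.92% of pairs. The 6 overlapping members therefore carry limits of their own. Def lies in an intron of magu on the opposite strand, and Mtk in an intron of Stacl on the same strand. AttC shares 53 exon bases with CG4744, DptB shares 48 with CG43109, and BomS4 shares 88 with BomBc2.

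Library totals ran from 21070598 to 34217543 counts, and values are given as CPM, the usual per-library scaling of counts, computed on TMM effective totals. The labelled body parts held their markers: 4 eye genes summed to 72.8 and 68.7 CPM in the abdomen libraries against 9432 and 9454 CPM in those of head-thorax at 2 h, and 8 seminal fluid genes to 4647 and 4544 CPM against 5.85 and 5.06 CPM. A gene is called higher or lower where edgeR's quasi-likelihood test gave a Benjamini-Hochberg adjusted p under 0.05 over all genes and the fitted ratio was at least 2-fold. These p-values measure the spread between technical split libraries, and compare these pools rather than body parts or times in general. In a pool of body parts, fewer cells of a type and less RNA per cell cannot be told apart.

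The families divided by body part. Attacins, cecropins, diptericins, defensin, drosocin and metchnikowin were far more abundant in abdomen, whereas every Bomanin class was less abundant there. The attacins summed to 204 ± 2.34 CPM in the abdomen libraries against 5.45 ± 0.0885 CPM in those of head-thorax at 2 h (SD, n = 2 split libraries). The 12 Bomanins summed to 257 ± 10.5 CPM in the abdomen libraries against 572 ± 3.64 CPM in those of head-thorax at 2 h. At 26 h the head-thorax sums were 6.02 ± 0.823 CPM for attacins and 432 ± 3.67 CPM for Bomanins. The bicipital Bomanins, at 53.3 ± 2.06 CPM, were then nearer to the 36.5 ± 0.869 CPM of abdomen than to the 97.1 ± 0.302 CPM of head-thorax at 2 h. The whole set summed to 1154 ± 1.53 CPM in abdomen, and in head-thorax to 533 ± 2.92 CPM (26 h) or 711 ± 2.71 CPM (2 h).

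**Figure D1:**
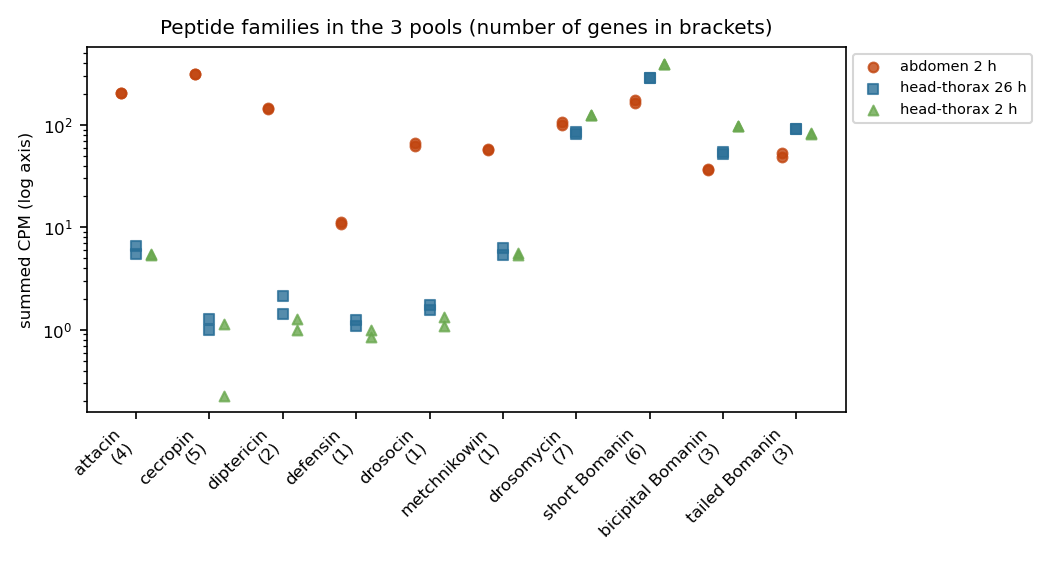
Summed CPM (vertical log axis) of each peptide family in each split library, with circles for abdomen, squares for the 26 h head-thorax pool and triangles for the 2 h one. The first 6 families from the left are highest in abdomen, and the 3 Bomanin classes are lowest there.

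Per kilobase of exon, different genes led the set in the 2 body parts. Anp led in abdomen at 676 CPM per kb, followed by BomS6 at 275, Drs at 229 and Mtk at 215 CPM per kb. BomS6 led the head-thorax pools, with 607 CPM per kb at 26 h and 993.5 CPM per kb at 2 h. Those levels were 39.9% and 46.0% of the summed level of all members per kb. BomS2 came next at both times, with 124 CPM per kb at 26 h and 159 at 2 h. The Drosomycin-like gene Drsl5 was at 7.08 CPM per kb in abdomen, against 156 CPM per kb in head-thorax at 2 h.

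**Figure D2:**
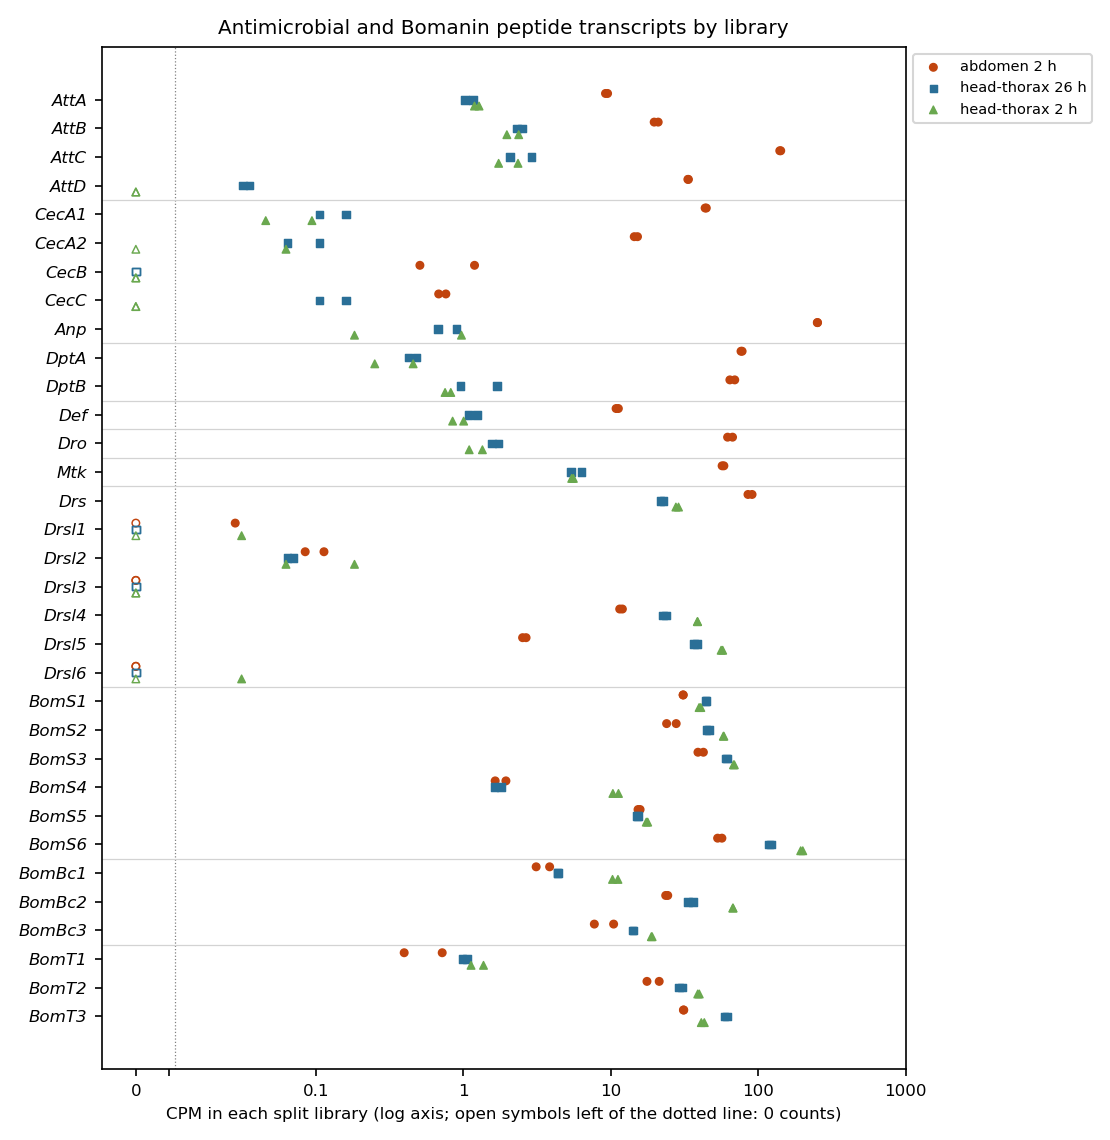
CPM of the 33 genes in each of the 6 split libraries (horizontal log axis, open symbols for 0 counts), grouped by family, with circles for abdomen, squares for the 26 h head-thorax pool and triangles for the 2 h one. Split libraries of a pool lie close together for most genes, and abdomen stands apart from both head-thorax pools for most antimicrobial peptides.

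Of the 33 genes, 15 were called higher in abdomen than in head-thorax at 2 h, 10 lower and 4 not called, and 4 were too rare to be tested. Across all 14694 genes tested 35.6% were called higher and 21.7% lower, so calls in either direction were common. The 15 higher members were all antimicrobial peptides, and 5 of them, AttD, CecA1, CecA2, CecB and CecC, had under 10 counts in every head-thorax library and were tested through their abdomen counts. Of the 10 lower members 8 were Bomanins and the others were Drsl4 and Drsl5. The fitted log2 ratio had a median of −1.12 over the 12 Bomanins, all of which were tested, against 0.06 over all genes tested.

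Among attacins, which act on Gram-negative bacteria, AttC was the most abundant, at 140.0 and 142 CPM in the 2 abdomen libraries against 2.35 and 1.73 CPM in those of head-thorax at 2 h. Its log2 ratio was 6.07 ± 0.07 SE. If every count of the overlapping CG4744 is taken away, AttC still stood 39.3-fold higher in abdomen. AttD was at 33.3 and 33.6 CPM in abdomen and had 0 counts in head-thorax at 2 h, so it was at least 601-fold higher when that pool is set to 3 counts. AttA and AttB were also higher in abdomen, by 7.59-fold and 9.55-fold, but kept a measurable head-thorax level: AttB had 19.7 and 20.96 CPM in abdomen against 1.97 and 2.37 CPM in head-thorax at 2 h.

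All 5 genes of the cecropin cluster were called higher in abdomen. Anp, which encodes andropin, had 251.6 and 253 CPM in abdomen against 0.970 and 0.182 CPM in head-thorax at 2 h. CecA1, whose product lyses bacterial membranes, had 44.4 and 43.6 CPM in abdomen against 0.0939 and 0.0456 CPM. The abdomen level of each was above that in head-thorax by over 8 on the log2 scale, at 8.59 ± 0.08 SE for Anp and 9.13 ± 0.17 for CecA1. CecA2 had 868 abdomen counts and 2 counts in the 2 h head-thorax pool, a ratio of 396.5 with an exact 95% counting interval from 109 to 3279. CecB and CecC were scarce even in abdomen, with 54 and 42 counts, and 0 counts in head-thorax at 2 h, which makes them at least 16.4-fold and 12.8-fold higher. CecB was not called by DESeq2's Wald test.

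The single-gene families and the diptericins followed the same direction. DptA, an Imd target active on Gram-negative bacteria, had 77.7 and 76.4 CPM in abdomen against 0.250 and 0.456 CPM in head-thorax at 2 h (log2 ratio 7.83 ± 0.11 SE). DptB had 64.2 and 69.3 CPM in abdomen against 0.751 and 0.821 CPM, and its 42 head-thorax counts were fewer than the 57 of the overlapping CG43109, so DptB's own level there cannot be told apart from that of its neighbour. Dro, the gene of drosocin, was 51.9-fold higher in abdomen, at 62.0 and 66.9 CPM against 1.35 and 1.09 CPM.

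Def and Mtk had smaller ratios than the diptericins and Dro. Def, the gene of an insect defensin active on Gram-positive bacteria, was 12.1-fold higher in abdomen, at 10.9 and 11.2 CPM against 0.845 and 1.00 CPM in head-thorax. Mtk, the gene of the antifungal and antibacterial metchnikowin, was 10.4-fold higher, at 58.5 and 56.9 CPM against 5.57 and 5.43 CPM. Their host genes had fewer counts in abdomen, magu 1995 against 4458 and Stacl 5697 against 17479. Reads from host introns cannot be told apart from those of Def and Mtk.

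The drosomycin family split between the body parts. Drs, the antifungal drosomycin, was the least abdomen-biased of the 15 higher members, at 85.2 and 90.8 CPM in abdomen against 27.6 and 28.8 CPM in head-thorax at 2 h (log2 ratio 1.65 ± 0.04 SE). Its paralogues Drsl4 and Drsl5 were lower in abdomen. Drsl5 had 2.66 and 2.52 CPM in abdomen against 57.4 and 56.0 CPM in head-thorax at 2 h (log2 ratio −4.46 ± 0.08 SE). Drsl4 had 11.5 and 12.0 CPM against 38.8 and 38.6 CPM, 3.29-fold lower. Drsl2 had 6 counts in the abdomen pool, 4 in the 26 h head-thorax pool and 6 in the 2 h one. Drsl1 had 1 count in each of the 2 h pools, Drsl6 had 1 in the 2 h head-thorax pool, and Drsl3 had none.

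**Figure D3:**
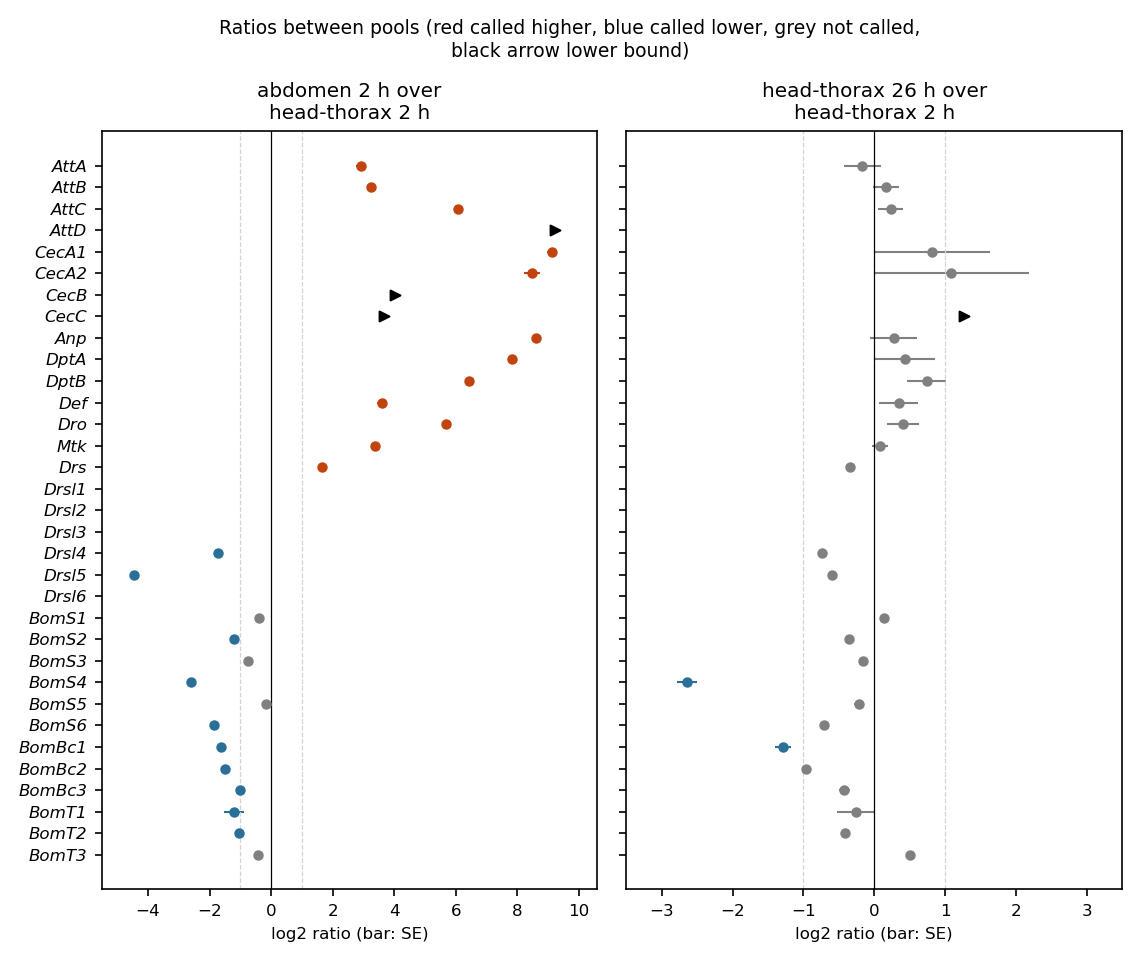
Fitted log2 ratio with its SE for each gene, abdomen at 2 h over head-thorax at 2 h on the left and head-thorax at 26 h over 2 h on the right, in red where called higher, blue where called lower and grey where not called. Black arrows mark lower bounds where head-thorax at 2 h had 0 counts, dashed lines mark 2-fold, and genes without a ratio are left blank; the left panel spans −4.46 for Drsl5 to a bound of 9.23 for AttD.

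Bomanins are secreted peptides that flies need to survive many fungal and Gram-positive infections. Short Bomanins are little more than 1 Bomanin motif, tailed ones carry an extension, and bicipital ones hold a pair of motifs. Of the 6 short genes 3 were lower in abdomen, BomS2, BomS4 and BomS6, all 3 bicipital genes were lower, and of the tailed genes BomT1 and BomT2 were lower. BomS6, the most abundant in head-thorax, had 56.7 and 53.0 CPM in abdomen against 194 and 200.5 CPM in head-thorax at 2 h (log2 ratio −1.85 ± 0.03 SE). BomBc1 had 3.84 and 3.12 CPM against 10.3 and 11.2 CPM, 3.12-fold lower, and BomBc2 had 24.3 and 23.6 CPM against 67.5 and 67.2 CPM, 2.82-fold lower.

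BomS1, BomS3, BomS5 and BomT3 were below the head-thorax level by less than 2-fold. BomS1 had 31.0 and 30.9 CPM in abdomen against 39.7 and 40.8 CPM, and BomS3 had 42.5 and 39.0 CPM against 68.9 and 67.9 CPM. BomS5 was closest to even, at 15.8 and 15.3 CPM in abdomen against 17.4 and 17.8 CPM, and its ratio of −0.18 turned to 0.028 when raw totals set the scale. The median ratio of all genes shifted by 0.14 (log2) under DESeq2 size factors and by 0.21 under raw totals. BomBc3 (−1.02) and BomT2 (−1.04) were short of 2-fold under DESeq2 size factors (−0.88 and −0.90), raw totals (−0.81 and −0.83) and DESeq2's Wald test (−0.90 and −0.88). Without split library 1 of head-thorax at 2 h they were at −0.95 and −0.96. BomBc3 was at −0.86 without split library 1 of abdomen, and BomT2 at −0.88 without split library 2. With the 2-fold limit tested inside the model BomBc3, BomT2 and BomT1 were not called. BomT1, with 31 counts in abdomen and 66 in head-thorax, was at −0.76 and not called without split library 2 of abdomen, and under raw totals BomS2 was at −0.98 and not called.

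Summed markers of fat body and blood cells were also less abundant in abdomen, with 1 of 3 and 3 of 5 tested markers called lower. Among all genes tested 21.7% were called lower and 35.6% higher. The 5 hemocyte markers, of insect blood cells, summed to 136 and 137 CPM in abdomen against 262 and 265 CPM in head-thorax at 2 h. Of the 4 fat body markers all had counts in head-thorax and Fbp1 had 0 in abdomen, and they summed to 2119 and 2008 CPM against 4778 and 4865 CPM. Most of the fat body sum in abdomen was apolpp, with a mean of 2059 CPM against 3849 CPM and not called. Lsp2, the fat body marker called lower, had 3.28 CPM against 971 CPM. Yp1 had 0.834 CPM against 1.46 CPM and was not called. The sums of these 2 lists were lower in abdomen, as that of the Bomanins was. The part of either list in the Bomanin ratios was not tested. The 5 midgut markers summed to 4507 and 4770 CPM in abdomen against 3902 and 3803 CPM, and single genes went either way. Mal-A1 and Jon65Aiv were called higher in abdomen and 3 were not called, betaTry (log2 ratio 0.17), LysB (−0.50) and Amy-p (−0.87).

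The traces of each peptide transcript in head-thorax were set beside those of genes of the male reproductive tract. The level in head-thorax at 2 h was 0.258% of the abdomen level for Anp, 0.169% for CecA1, 0.252% for CecA2 and 0.434% for DptA. These shares rest on 35, 4, 2 and 18 head-thorax counts, those of Anp being 31 and 4 in the split libraries. AttD, CecB and CecC had 0 counts. The 8 seminal fluid markers ranged from 0 to 0.197%, with Acp29AB at 0 counts. In the duct and bulb list Ebp, EbpII and Dup99B stood at 0.104%, 0.116% and 0.0972%, while Est-6, which is not limited to the tract, was at 111%. The 7 testis markers ranged from 0.108% to 4.65%, and 3 markers of the Malpighian tubule, outside the tract, from 4.59% to 29.6%. The other abdomen-biased peptides had larger head-thorax shares. DptB stood at 1.16%, AttC at 1.48%, Dro at 1.92% and Def at 8.20%. Mtk stood at 9.59%, AttB at 10.4%, AttA at 13.1% and Drs at 31.7%. The shares of DptB, Def and Mtk may be made up of reads from CG43109, magu and Stacl, which they overlap.

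The lowest shares at 26 h belonged to the same families. Anp stood at 0.312% of its abdomen level, CecA1 at 0.305%, CecA2 at 0.570% and AttD at 0.1001%, from 47, 8, 5 and 2 counts. CecB had 0 counts, and CecC, scarce in abdomen, stood at 18.8% from 8 counts. The seminal fluid markers ranged from 0.121% to 0.325% and all 8 had counts. Whether these head-thorax reads came from abdominal tissue was not tested.

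**Figure D4:**
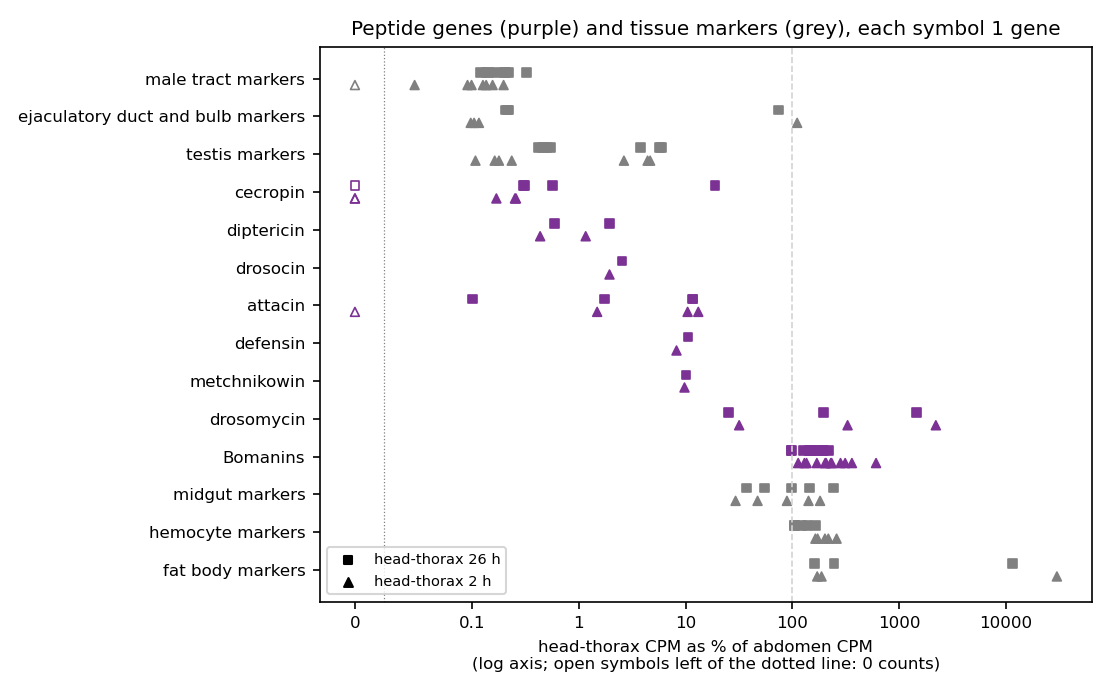
CPM in head-thorax as a percentage of CPM in abdomen (horizontal log axis, open symbols for 0 counts, dashed line at equality), with peptide genes in purple and marker genes in grey, squares for 26 h and triangles for 2 h. At 2 h Anp, CecA1 and CecA2 lie at 0.169% to 0.258%, DptA at 0.434%, and AttD, CecB and CecC at 0. CecA1 and CecA2 rest on 4 and 2 counts. The seminal fluid markers then range from 0 to 0.197% and the testis markers from 0.108% to 4.65%. Drs reaches 31.7%, and Bomanins lie near or above equality. Drsl genes with 6 counts or fewer in abdomen are not drawn.

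Between the times in head-thorax most members differed by less than 2-fold. At 26 h against 2 h, 2 of the 33 genes were called lower, BomS4 and BomBc1, and 1, CecC, was called higher, while 6.21% of all genes were called higher and 1.5% lower. BomS4 had 1.80 and 1.63 CPM in the 26 h libraries against 10.3 and 11.3 CPM at 2 h, the largest difference of any member with more than 10 counts at both times (log2 ratio −2.64 ± 0.14 SE, adjusted p = 1.88e-31 by edgeR's quasi-likelihood test). The libraries of the 2 times did not overlap. In abdomen BomS4 had 1.94 and 1.64 CPM.

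BomS4 overlaps BomBc2, which was also lower at 26 h, so the pair was compared within each library. The BomS4 count was 4.98% and 4.87% of the BomBc2 count at 26 h, against 15.3% and 16.8% at 2 h. BomBc2 itself had 36.1 and 33.5 CPM at 26 h against 67.5 and 67.2 CPM at 2 h, a log2 ratio of −0.96 ± 0.04 SE that passed the 2-fold limit on raw totals (−1.05), or when split library 1 of 26 h was left out (−1.01). BomBc1, with reads of its own, fell to 4.37 and 4.35 CPM at 26 h, against 10.3 and 11.2 CPM at 2 h (log2 ratio −1.29 ± 0.11 SE). With the 2-fold limit tested inside the model BomS4 was still called and BomBc1 was not.

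**Figure D5:**
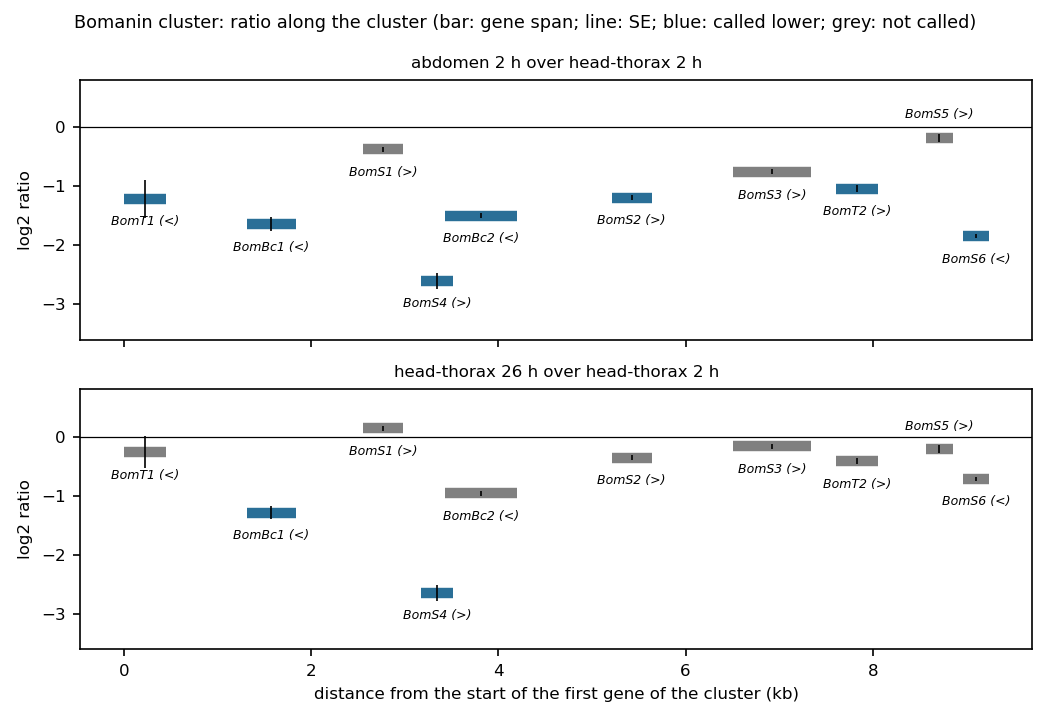
Log2 ratio (vertical axis) of the 10 Bomanin genes of the 2R cluster against distance from its first gene in kb, for abdomen over head-thorax at 2 h above and head-thorax at 26 h over 2 h below, with bars spanning each gene, arrows in brackets for its strand and lines for the SE. BomS4 is lowest in both panels, at −2.60 and −2.64, while its neighbour BomS1 is at −0.38 and 0.14.

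The ratios differed along the cluster at 26 h. The 10 clustered genes ranged from −2.64 for BomS4 to 0.14 for BomS1, and these 2 genes are neighbours. On 3R BomT3 and BomBc3 went in opposite directions. BomT3 had 58.8 and 61.3 CPM at 26 h against 43.1 and 41.1 CPM at 2 h (log2 ratio 0.51 ± 0.04 SE), and BomBc3 had 14.3 and 14.1 CPM at 26 h against 19.1 and 18.8 CPM at 2 h (−0.42 ± 0.07 SE).

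With no fold limit, 12 members passed as lower at 26 h and 4 as higher, where 21.3% and 19.7% of all genes did. The 12 were 9 Bomanins, among them BomS6 at 122 and 119 CPM at 26 h against 194 and 200.5 CPM at 2 h, together with Drs, Drsl4 and Drsl5. Drsl4 had 22.6 and 23.7 CPM at 26 h against 38.8 and 38.6 CPM, and Drsl5 had 36.7 and 38.5 CPM against 57.4 and 56.0 CPM. The 4 higher genes were BomT3, BomS1, DptB and CecC. CecC rested on 8 counts at 26 h against 0 at 2 h, at least 2.41-fold, and was not called with the fold tested inside the model, by DESeq2's Wald test, or without split library 1 of 2 h or split library 2 of 26 h.

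The summed hemocyte markers were below their 2 h level at 26 h, with 1 of 5 called lower. The summed fat body markers were above their 2 h level, with 1 of 3 tested called lower. Among all genes tested 1.5% were called lower. The 5 hemocyte markers summed to 182 and 185 CPM at 26 h against 262 and 265 CPM at 2 h. The 4 fat body markers summed to 5445 and 5370 CPM against 4778 and 4865 CPM. Most of that sum was apolpp, with a mean of 5032 CPM at 26 h against 3849 CPM at 2 h. Lsp2, the fat body marker called lower, had 374 CPM against 971 CPM, and Yp1 had 1.36 CPM against 1.46 CPM. All markers of both lists had counts in both pools, and their part in the Bomanin ratios was not tested.

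The abundant abdominal peptides had low values in head-thorax at both times. The attacins AttA, AttB and AttC, Anp, DptA, Def, Dro and Mtk were not called at 26 h, with log2 ratios from −0.17 for AttA to 0.43 for DptA. AttC had 2.89 and 2.08 CPM at 26 h against 2.35 and 1.73 CPM at 2 h, and the libraries of the 2 times overlapped. DptB had 1.69 and 0.959 CPM at 26 h against 0.751 and 0.821 CPM (0.74 ± 0.28 SE), and was called higher, at 1.11, without split library 2 of 26 h. The direction for DptA, Anp, AttC and Mtk turned when 1 library was left out.

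After adjustment few members differed between the split libraries of 1 pool. By the exact binomial test with Benjamini-Hochberg adjustment over all genes of the pool, 1 of 29 members tested differed in the abdomen pool, 0 of 24 in the 26 h pool and 1 of 24 in the 2 h head-thorax pool. Over all genes the shares were 1.83%, 0.459% and 0.638%. At an unadjusted p under 0.05, 8 of 29 members differed in the abdomen pool, a larger share than the 10.4% of all genes tested there. In the 26 h pool 2 of 24 did and in the 2 h head-thorax pool 1 of 24, where 6.72% and 7.21% of all genes tested did. The abdomen gene was BomBc3, with 183 and 369 counts (adjusted p = 0.0462, exact binomial test).

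The gene that differed in head-thorax at 2 h was Anp, which had 31 counts in the first split library but 4 in the second, by the same exact test (adjusted p = 0.0356). Without split library 1 of that pool, Anp was called higher at 26 h, at a log2 ratio of 2.08, and without split library 2 its ratio was −0.30. In split libraries 1 and 2 the testis markers summed to 8.80 and 5.70 CPM and the seminal fluid markers to 5.85 and 5.06 CPM. The duct and bulb list summed to 814 and 816 CPM, of which Est-6 gave 25838 of 26019 and 17796 of 17879 counts. Split library 1 was the deeper, with 32627878 counts in all against 22604036. Est-6 aside, the markers with the most counts had more in split library 1 than this depth gives. They were S-Lap1 with 157 and 65 counts, Ebp with 127 and 55, Acp36DE with 84 and 54, Acp95EF with 57 and 23, betaTub85D with 54 and 12, and EbpII with 41 and 20. Scarcer markers went either way, SP with 5 and 1 counts, topi with 27 and 20 and Acp98AB with 5 and 7. Their part in the Anp difference was not tested.

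Genes of the pathways that control these peptides were compared as lists. Of 21 Toll pathway genes 11 were lower in abdomen than in head-thorax at 2 h and 0 higher, with a median log2 ratio of −1.01. Among all genes 21.7% were called lower and 35.6% higher, with a median of 0.06. The serine proteases grass (−1.89 ± 0.08 SE), SPE (−1.73 ± 0.04) and psh (−1.61 ± 0.07), which act in the cascade that matures the Toll ligand, and the NF-kappaB gene dl (−1.42 ± 0.05) differed most. SPE overlaps another annotated gene, so some of its reads may not be its own. Of the Toll genes 7 rather than 11 were lower under DESeq2 size factors or raw totals, and spz, the gene of the Toll ligand, was then called higher.

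Of 23 Imd pathway genes 5 were higher in abdomen and 2, Tak1 and PGRP-LA, lower, with a median of −0.22. Both counts are smaller shares of the list than the 35.6% and 21.7% of all genes called higher and lower. The higher genes were the amidases PGRP-SC1a, PGRP-SC1b, PGRP-SC2 and PGRP-LB, which break down peptidoglycan and dampen the pathway, and the homeobox gene cad, which represses Imd targets in the gut. cad had 42.9 ± 0.327 CPM in the abdomen libraries against 1.03 ± 0.0428 CPM in those of head-thorax at 2 h (SD, n = 2). PGRP-SC2 had 44.8 ± 1.66 CPM and 14.0 ± 0.0330 CPM. PGRP-SC1a, with 183 counts in abdomen and 3 in head-thorax, had a ratio of 55.7 with a counting interval from 18.8 to 273. PGRP-SC1b, with 199 and 6 counts, was at 4.87 ± 0.35 SE. These 2 genes are close copies that can share reads, and both were tested through their abdomen counts.

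Of 10 other immune-induced peptide genes 9 were tested, and 3 were higher in abdomen and 4 lower, against 35.6% and 21.7% of all genes. Of the higher genes edin and IBIN, with 3 and 10 counts in the 2 h head-thorax pool, were tested through their abdomen counts. edin had 2377 abdomen counts and 3 counts in the 2 h head-thorax pool, a ratio of 724 with a counting interval from 247 to 3512, and overlaps another annotated gene. IBIN had 25.9 ± 0.616 CPM in the abdomen libraries against 0.192 ± 0.0506 CPM in those of head-thorax, and Mtkl was at 2.45 ± 0.21 SE. The lower genes were BaraC (−2.60 ± 0.13 SE), Dso1 (−2.25 ± 0.04), Listericin (−1.25 ± 0.09) and Dso2 (−1.003 ± 0.06), Dso1 and Dso2 being the Toll-induced antifungal Daisho peptides. Dso2 lay at the 2-fold limit and was not called under DESeq2 size factors (−0.86), raw totals (−0.80) or DESeq2's Wald test (−0.86), with the fold tested inside the model, or without split library 1 of abdomen (−0.996) or of head-thorax at 2 h (−0.90). Dso1 had 21.3 ± 0.407 CPM in the abdomen libraries against 102 ± 2.11 CPM in those of head-thorax at 2 h.

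At 26 h against 2 h in head-thorax no Toll or Imd pathway gene was called by edgeR's quasi-likelihood test with the 2-fold limit. Without that limit 4 Toll genes were higher and 13 lower, and 1 Imd gene was higher and 10 lower, where 19.7% of all genes were higher and 21.3% lower. At an unadjusted p under 0.05 the Toll counts were 4 and 13 and the Imd counts 1 and 11. The share of all genes at that unadjusted threshold is not given here, so these counts have no background beside them. DESeq2's Wald test with that limit called 0 genes of either list. Of the other immune-induced genes Mtkl was higher, with 2.13 ± 0.112 CPM at 26 h against 0.774 ± 0.321 CPM at 2 h. IBIN was lower, with 1 count at 26 h and 10 at 2 h, a ratio of 0.0903 with a counting interval from 0.00208 to 0.635. Neither gene was called with the fold tested inside the model, and IBIN was not called by DESeq2's Wald test or without split library 2 of 26 h.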

How the data were processed

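Each deposited file gives raw counts of reads by FlyBase gene, from single-end 50 nt reads per the series design. How reads were aligned and counted, and on which build, is not given in the sources used here. Of 16942 identifiers 16735 matched the BDGP6.54 annotation, which supplied symbols, positions, exon lengths and overlaps. CPM used TMM effective library sizes. Pools were compared with edgeR 4.0.16 in R 4.3.3 (quasi-likelihood test, filterByExpr, 6 libraries in 1 fit, 3 residual degrees of freedom), and DESeq2 1.42.0 was an alternative. Split libraries were compared by a two-sided exact binomial test for genes with 10 or more counts over both. Floors and exact 95% intervals cover counting error only. The members, lists and tests were chosen with earlier results of these data known. All members are named, and up to 4 called genes of each pathway list with the largest ratios; other genes were named after their values were seen. The fit was tested on simulated data. A planned search of promoter motifs was not run, as no sequence was used here.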

Additional observations from a re-analysis of the deposited data

How the results depend on the processing

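For abdomen against head-thorax at 2 h, 11 to 15 members were higher and 7 to 14 lower over the alternatives run, against 15 and 10. The 11 is the count without the overlapping members, which takes AttC, DptB, Def and Mtk out of the set rather than changing their calls. The median log2 ratio over the 29 tested members (1.65, that of Drs) sits between 2 opposed groups: it was 1.79 under DESeq2 size factors, 1.86 under raw totals, 1.79 by DESeq2's Wald test, −0.13 with no filter on low counts, −0.18 for members that overlap no gene, and 0.73 to 1.69 with 1 library left out. BomS5 turned to 0.028 under raw totals. Toll genes lower numbered 7 under DESeq2 size factors, raw totals and DESeq2's Wald test, with 1 higher in each; with no fold limit 19 were lower and 2 higher, and 15 Imd genes were lower. With 1 library left out 0 to 1 Toll genes were higher.

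For 26 h against 2 h in head-thorax, the fold tested inside the model left 0 members higher and 1 lower, and 0 other immune peptides in either direction. With no fold limit 4 members were higher and 12 lower, 4 Toll genes higher and 13 lower, 1 Imd gene higher and 10 lower, and 2 other immune peptides higher and 4 lower. DESeq2's Wald test left 0 members higher and 0 other immune peptides lower; without the overlapping members 1 was lower. With 1 library left out 0 to 1 other immune peptides were lower. The median over members (0) is the value of CecB, which had 0 counts in both head-thorax pools and so holds no information on time. It was −0.16 with no filter, −0.14 with the replicate block and −0.16 without the overlapping members, and −0.13 to 0 with 1 library left out. Mtk turned to −0.015 under raw totals. With 1 library left out AttC ranged from −0.014 to 0.51, Anp from −0.30 to 2.08, DptA from −0.010 to 0.84 and Mtk from −0.038 to 0.20.

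Same-numbered split libraries deviated together with correlations of −0.00516, 0.026 and 0.0821 across 10917 genes, so the numbers do not pair them. The replicate block left every member's call as it was in both comparisons. With it BaraA1 was called lower in abdomen (−1.0001), against −0.99 and not called without it. At a summed count of at least 50, 0 members differed between split libraries of head-thorax at 2 h. That limit leaves Anp, with 35 counts in the pool, untested. On raw totals the members summed to 1299 CPM (abdomen), 485 CPM (head-thorax, 26 h) and 693 CPM (head-thorax, 2 h). The cause of these differences was not tested. Depth limits Drsl1, Drsl2, Drsl3, Drsl6, CecB and CecC.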
